A study of Mus musculus with 2 samples.

Results

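The regulators of G1 entry were measured in RAW264.7 cells, a macrophage line from mouse that can become osteoclasts, after transfection with *Flcn* siRNA or scramble siRNA. They comprise the D cyclins *Ccnd1*, *Ccnd2* and *Ccnd3*, their kinases *Cdk4* and *Cdk6*, the E cyclins *Ccne1* and *Ccne2*, their kinase *Cdk2*, and the CDK inhibitors *Cdkn1b* and *Cdkn2c*. These 10 genes, of 18193 genes named on the array, were chosen by name as G1 regulators, with earlier results of these data known. Each was followed through every probe set that the platform annotation gives to that gene alone. This gave 27 probe sets of 34945, and each of the 10 genes had at least 1 probe set above the signal filter. *Flcn* encodes folliculin, a tumor suppressor that keeps the transcription factor Tfe3 out of the nucleus. The *Flcn* siRNA cells and the scramble siRNA cells were both of the RAW264.7 line, were both moved to MEMα medium with 10% FCS at 24 hours after transfection, and were both harvested 48 hours later. The labels name no RANKL for either condition. Each condition was measured on 1 Affymetrix Mouse Genome 430 2.0 array, so no difference below has a replicate check and no p-value was computed. The knockdown is transient, the line is a transformed one, a single *Flcn* siRNA is named in the methods, and the number of cultures is not given in the sources used here.

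Cells commit to DNA replication in G1. Growth factor signals induce the D cyclins, which bind Cdk4 or Cdk6 and begin to phosphorylate the retinoblastoma protein. This frees E2F transcription factors, whose target genes include those of the E cyclins, and cyclin E with Cdk2 completes the phosphorylation and helps to start replication. The INK4 protein p18, encoded by *Cdkn2c*, binds Cdk4 and Cdk6, and the Cip/Kip protein p27, encoded by *Cdkn1b*, binds and inhibits cyclin E with Cdk2. Much of this control acts on protein amounts and on phosphorylation, which an RNA array does not measure.

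Signals are linear intensities in arbitrary units, scaled by the authors. The median signal was 13.6 with *Flcn* siRNA and 12.8 with scramble siRNA, and lower signals were raised to the median of their array before a ratio was taken. Ratios are given as log2 of *Flcn* siRNA over scramble siRNA, and a gene was called at 1.5-fold or more, which is 0.58 on the log2 scale. A probe set passed the filter when the geometric mean of both signals reached 13.2, and a gene is represented by its probe set with the highest geometric mean. *Flcn* itself had a signal of 145.4 with *Flcn* siRNA and 208.6 with scramble siRNA at one probe set (log2 ratio -0.52), and 206.2 with *Flcn* siRNA and 240.9 with scramble siRNA at a second (-0.22), both short of 1.5-fold, and its remaining probe set lay below the filter, with 7.2 after *Flcn* siRNA and 8.0 after scramble siRNA. The cells had macrophage markers above the filter for 9 of 10 genes, and their signals summed to 23068 with *Flcn* siRNA and to 23956 with scramble siRNA. Osteoclast markers were above the filter for 5 of 9 genes, with sums of 505.4 after *Flcn* siRNA and 413.5 after scramble siRNA. Of 20 measured markers of 6 other lineages 1 was above the filter, with sums of 107.3 after *Flcn* siRNA and 130.7 after scramble siRNA over the 20. In RNA from whole cultures, fewer cells that hold a transcript and less of it in each cell cannot be told apart.

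None of the 10 genes was called in either direction at 1.5-fold, while 604 of 10285 genes above the filter were called higher (5.87%) and 570 were called lower (5.54%). Of all called genes 51.4% were higher, or 34.0% with median scaling, in which each signal is taken relative to the array median. The E cyclins, *Cdk2* and *Cdkn2c* had log2 ratios of 0.46 to 0.55 at the probe sets that represent them, and the D cyclins, *Cdk4*, *Cdk6* and *Cdkn1b* had ratios of -0.063 to 0.20. The median over the 10 genes was 0.18, against 0.013 over all genes above the filter. At 1.3-fold, an alternative threshold, 4 of the 10 genes were higher and none was lower, against 13.5% and 12.3% of all genes. At 2-fold none of them was called, against 0.846% and 1.1%.

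**Figure D1:**
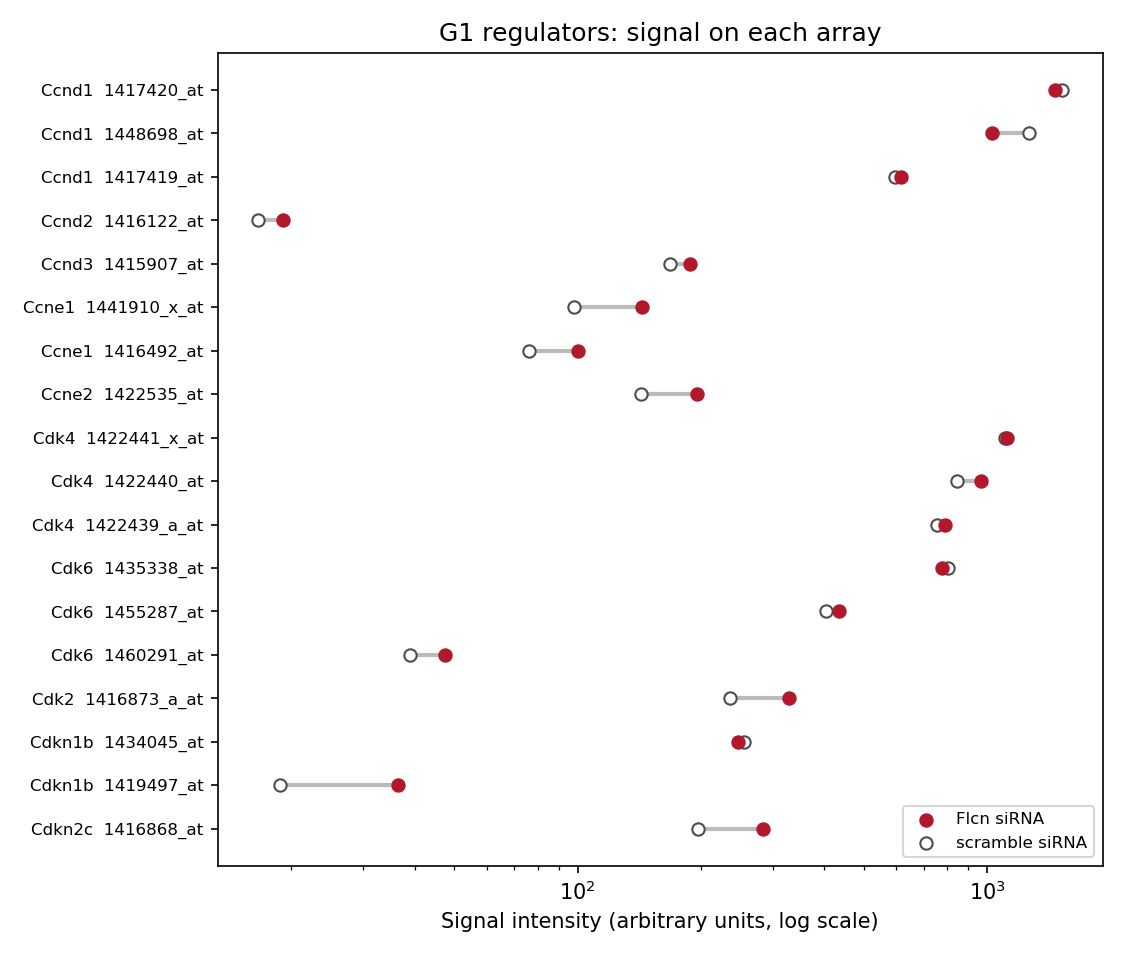
Signal intensity (arbitrary units, log axis) of the 18 probe sets above the filter, with *Flcn* siRNA as filled red points and scramble siRNA as open points, 1 array each, joined by a grey bar. The bars are long for *Ccne1*, *Ccne2*, *Cdk2*, *Cdkn2c* and the dim probe set of *Cdkn1b*, where the signals were 36.4 (*Flcn* siRNA) and 18.8 (scramble siRNA), and short for *Cdk4*, where they were 1118.8 (*Flcn* siRNA) and 1109.1 (scramble siRNA) at the brightest probe set.

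*Ccnd1*, the cyclin D1 gene and the main D cyclin target of growth factor signaling in many cells, was bright at each of its 3 probe sets. At 1417420_at, which represents the gene, its signal was 1461.7 with *Flcn* siRNA and 1527.1 with scramble siRNA, a log2 ratio of -0.063. At 1448698_at it was 1029.5 with *Flcn* siRNA and 1265.4 with scramble siRNA (log2 ratio -0.30), and at 1417419_at 616.5 with *Flcn* siRNA and 597.6 with scramble siRNA (0.045). The probe sets thus lay on both sides of 0 and had an SD of 0.18, so that no direction is given for this gene. *Ccnd2*, the cyclin D2 gene, was barely above the array medians. Its only probe set above the filter, 1416122_at, had a signal of 19.1 with *Flcn* siRNA and 16.6 with scramble siRNA (log2 ratio 0.20), and the other 6 lay below it. *Ccnd3*, which encodes cyclin D3, the form prominent in many blood cells, had 188.5 with *Flcn* siRNA and 168.0 with scramble siRNA at 1415907_at, a log2 ratio of 0.17, and 2 further probe sets below the filter. The 9 probe sets of the 10 genes that failed the filter, 6 of *Ccnd2*, 2 of *Ccnd3* and 1 of *Cdk2*, had signals of 0.3 to 11.8 with *Flcn* siRNA and 0.2 to 7.9 with scramble siRNA, and no ratio is given for them.

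The kinases that work with the D cyclins differed little. *Cdk4* had a signal of 1118.8 with *Flcn* siRNA and 1109.1 with scramble siRNA at 1422441_x_at, a log2 ratio of 0.013. Its suffix means that some of its probes may also match other sequences. The second *Cdk4* probe set, 1422440_at, had 967.9 with *Flcn* siRNA and 844.7 with scramble siRNA (log2 ratio 0.20). It represents *Cdk4* when only probe sets unique to 1 transcript are used. The third had 791.2 with *Flcn* siRNA and 752.9 with scramble siRNA (0.072). The 3 ratios were above 0, but with median scaling those of 1422441_x_at and 1422439_a_at were -0.075 and -0.016. *Cdk6*, the other D cyclin kinase, had 776.0 with *Flcn* siRNA and 801.2 with scramble siRNA at its brightest probe set (log2 ratio -0.046), 435.9 with *Flcn* siRNA and 405.4 with scramble siRNA at the next (0.10), and 47.4 with *Flcn* siRNA and 39.0 with scramble siRNA at the dimmest (0.28). As with *Ccnd1*, the probe sets of *Cdk6* lay on both sides of 0, and their SD was 0.16.

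*Ccne1* and *Ccne2*, which encode cyclins E1 and E2 and are textbook targets of E2F, both had more signal on the *Flcn* siRNA array. For *Ccne1* the signal was 144.0 with *Flcn* siRNA and 98.1 with scramble siRNA at 1441910_x_at, which is 1.47-fold and just short of a call. The suffix of this probe set means that some of its probes may also match other sequences. At its other probe set, 1416492_at, it was 100.4 with *Flcn* siRNA and 75.9 with scramble siRNA, or 1.32-fold. *Ccne2* had 195.7 with *Flcn* siRNA and 142.7 with scramble siRNA at its single probe set, or 1.37-fold. The log2 ratios were 0.55 and 0.40 for *Ccne1* and 0.46 for *Ccne2*, so both genes and each of their 3 probe sets lay on the same side of 0. *Cdk2*, the kinase that cyclin E activates, had 329.2 with *Flcn* siRNA and 235.7 with scramble siRNA at 1416873_a_at, a log2 ratio of 0.48 or 1.40-fold. It has no second probe set above the filter, and the suffix of this one means that it matches several transcripts of the gene.

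Set side by side, the 4 probe sets of *Ccne1*, *Ccne2* and *Cdk2* had log2 ratios of 0.40 to 0.55, and the 11 probe sets above the filter of the D cyclins, *Cdk4* and *Cdk6* had ratios of -0.30 to 0.28. These ranges do not overlap, and *Cdkn2c*, which is in neither group, had 0.52. Every one of the 4 lay above 0, against 8 of the 11 and 51.6% of all probe sets above the filter. The medians were 0.47 for the 4 and 0.072 for the 11. With median scaling the ranges were 0.32 to 0.47 and -0.39 to 0.19, and 5 of the 11 lay above 0. With quantile normalization they were 0.40 to 0.55 and -0.29 to 0.27. Probe sets of 1 gene share their RNA and are no replicates, so this is a description of 2 arrays. The typical disagreement between probe sets that measure the same gene, a technical spread, was an SD of 0.19 (median of 5034 genes).

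**Figure D2:**
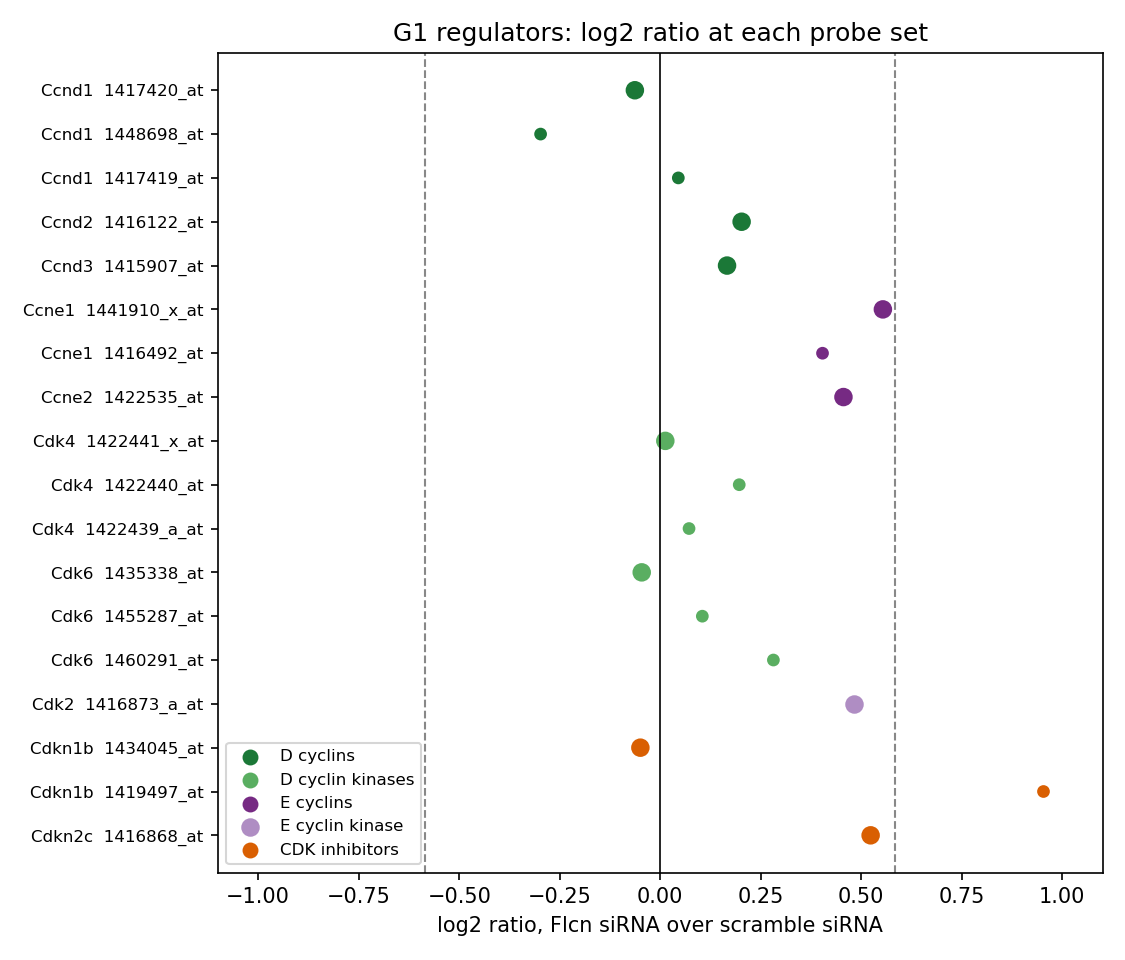
Log2 ratio, *Flcn* siRNA over scramble siRNA, at the 18 probe sets above the filter, coloured by role, with large points for the probe set that represents the gene and dashed lines at 1.5-fold. The points of *Ccne1*, *Ccne2* and *Cdk2* lie between 0.40 and 0.55, to the right of every D cyclin, *Cdk4* and *Cdk6* point, and only 1 point, of *Cdkn1b* at 0.95, passes a dashed line.

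The kinase promoters are shown because these genes differ in ratio while acting in adjacent steps, and because 2 factors of interest here bind short words that can be searched. They were thus chosen with their ratios known, so words and ratios set side by side are no test. E2F binds words of the kind TTTCCCGC, TTTCGCGC, TTTGCCGC or TTTGGCGC, and Tfe3, like Myc, binds the E-box CACGTG. The paper reports Tfe3 binding at M-box motifs of *Pgc1α* and *Pgc1β*, which were not searched for as such. Both strands of the 250 bases before each start site were searched in RefSeq promoters of GRCm38.p6, in which 7 of the 10 genes have an entry. The sequences below run 5′ to 3′ along the gene, with the matched words in capitals. *Cdk2* is at chr10:128705052-128705301 on the minus strand, *Cdk4* at chr10:127063285-127063534 on the plus strand and *Cdk6* at chr5:3343643-3343892 on the plus strand.
Cdk2: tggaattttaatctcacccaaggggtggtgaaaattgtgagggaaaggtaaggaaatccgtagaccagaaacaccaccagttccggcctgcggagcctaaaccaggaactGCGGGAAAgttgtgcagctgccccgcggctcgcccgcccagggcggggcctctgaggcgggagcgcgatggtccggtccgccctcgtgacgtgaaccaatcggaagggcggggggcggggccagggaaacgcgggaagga
Cdk4: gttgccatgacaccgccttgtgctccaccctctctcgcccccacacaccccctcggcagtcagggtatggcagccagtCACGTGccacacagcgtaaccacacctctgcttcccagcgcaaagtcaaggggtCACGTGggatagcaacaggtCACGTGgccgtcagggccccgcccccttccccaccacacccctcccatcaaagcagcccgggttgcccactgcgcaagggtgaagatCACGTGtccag
Cdk6: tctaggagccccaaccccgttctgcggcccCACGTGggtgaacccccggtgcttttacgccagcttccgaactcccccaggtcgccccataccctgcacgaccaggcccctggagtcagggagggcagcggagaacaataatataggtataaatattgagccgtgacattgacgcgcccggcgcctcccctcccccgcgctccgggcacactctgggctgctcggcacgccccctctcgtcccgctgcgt
The word in the *Cdk2* promoter is an E2F word read on the other strand, and its first letter lies 140 bases before the start. The *Cdk4* promoter holds 4 E-boxes, which begin 172, 118, 98 and 11 bases before the start, and the *Cdk6* promoter holds 1, at 220 bases. The *Cdk6* gene is annotated from position 3341004, so this window lies inside the annotated gene. The bases before position 3341004 were not searched. Over all 32851 promoter windows of this length, 1.86% held an E2F word and 6.02% held an E-box. Neither word was found in the windows of *Ccnd3*, *Ccne1*, *Cdkn1b* and *Cdkn2c*, which says only that these letters are not in those bases. A match is no measured binding site, and binding was not measured on these arrays. *Cdk4*, with 4 E-boxes, had log2 ratios of 0.013 to 0.20 over its probe sets.

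Of the CDK inhibitors, *Cdkn2c* had 1 probe set above the filter and *Cdkn1b* had 2, which disagreed. *Cdkn2c*, the p18 gene, had a signal of 283.7 with *Flcn* siRNA and 197.4 with scramble siRNA at its single probe set, a log2 ratio of 0.52 or 1.44-fold, close to those of the E cyclins. *Cdkn1b*, the p27 gene, had 246.6 with *Flcn* siRNA and 255.2 with scramble siRNA at its bright probe set 1434045_at (log2 ratio -0.049). Its dim probe set 1419497_at had 36.4 with *Flcn* siRNA and 18.8 with scramble siRNA, a log2 ratio of 0.95. This was the only one of the 18 probe sets to be called, where 6.56% of all probe sets above the filter were called higher and 5.92% lower. At 1.3-fold 6 of the 18 were higher and none lower, against 14.6% and 13.2% of all probe sets, and at 2-fold none was called, against 1.07% and 1.11%. The 2 probe sets of *Cdkn1b* disagreed by more than those of any other of these genes, with an SD of 0.71, and no direction is given for the gene.

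Dim genes varied more on these arrays, so each gene was also read against genes of like signal. Between signals of 200 and 1000, where *Cdk2* and *Cdkn2c* lie, the 10th and 90th percentiles of the log2 ratio over 3584 genes were -0.37 and 0.34, and 2.59% of genes were called higher. Between 50 and 200, where *Ccne1* and *Ccne2* lie, they were -0.42 and 0.44 over 3629 genes. The log2 ratios of *Cdk2* (0.48), *Cdkn2c* (0.52), *Ccne1* (0.55) and *Ccne2* (0.46) were above the 90th percentile of their own range, *Ccne2* narrowly. The other 6 genes were between the 10th and the 90th percentile of theirs. *Ccnd2* fell in the dimmest range, where the 90th percentile was 0.68 and 14.7% of genes were called higher, and its ratio was 0.20. Among all 10285 genes, *Ccne1* ranked at the 93.3rd percentile, *Cdkn2c* at the 92.4th, *Cdk2* at the 91.2nd and *Ccne2* at the 90.1st, and *Ccnd1*, *Cdk6* and *Cdkn1b* at the 39.7th, 41.8th and 41.2nd.

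**Figure D3:**
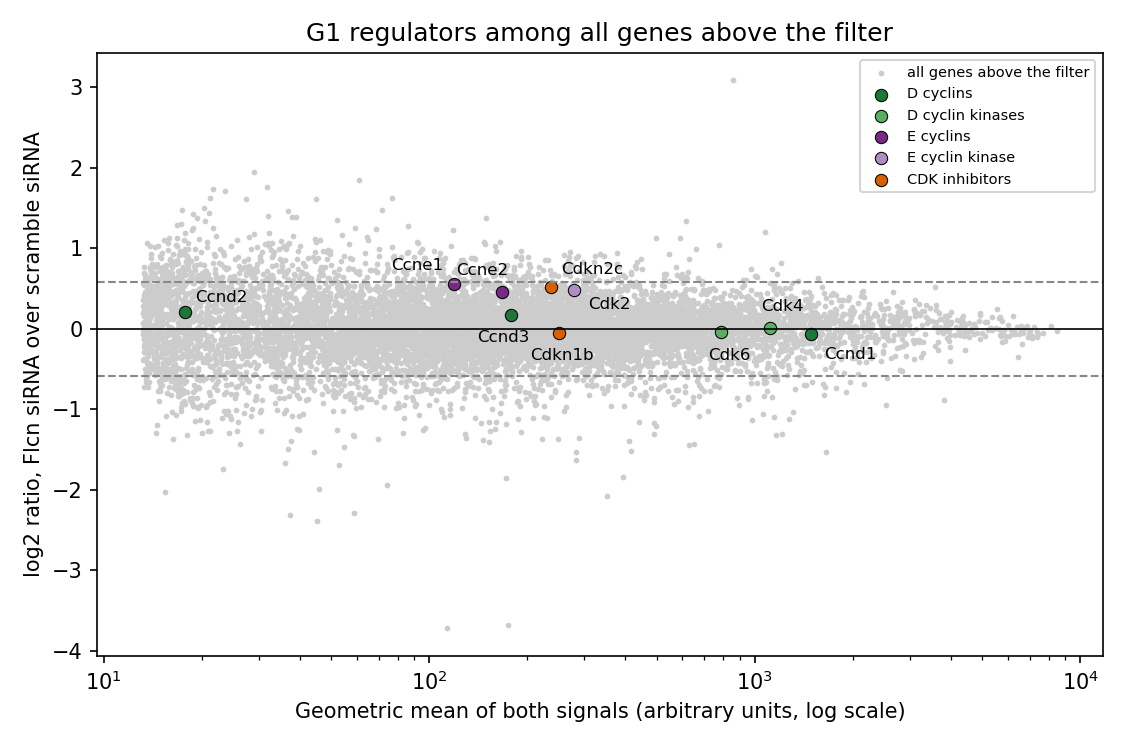
Log2 ratio, *Flcn* siRNA over scramble siRNA, against the geometric mean of both signals (arbitrary units, log axis) for 10285 genes above the filter (grey), with the 10 G1 regulators coloured by role and dashed lines at 1.5-fold. *Ccne1*, *Ccne2*, *Cdk2* and *Cdkn2c* form a cluster just under the upper dashed line, and *Ccnd1*, *Cdk4* and *Cdk6* lie near 0 at high signal.

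Genes around these regulators were read from lists written from general knowledge, with earlier results of these data known. Their counts stand beside the 5.87% and 5.54% of all genes. Of all genes above the filter 51.7% had a log2 ratio above 0. E2F target genes of S phase had 24 of 24 measured genes above 0 and 16 called higher, with a median log2 ratio of 0.72. The highest were *Tk1*, the thymidine kinase of S phase (732.6 with *Flcn* siRNA and 336.6 with scramble siRNA), *Rrm2*, a subunit of ribonucleotide reductase (1112.3 after *Flcn* siRNA and 541.0 after scramble siRNA), and *Mybl2*, a transcription factor of cycling cells (134.0 after *Flcn* siRNA and 67.3 after scramble siRNA), which were 2.18-fold, 2.06-fold and 1.99-fold higher. The lowest log2 ratio in the list was 0.24. The 4 G1 regulators with ratios of 0.46 to 0.55 therefore lay inside the range of this list but under its median.

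Among E2F and pocket proteins 5 of 17 were called higher and none lower, with a median log2 ratio of 0.20, or 3 higher and 1 lower (*Tfdp2*, an E2F partner) with median scaling. Before this scaling the 4 probe sets of *Tfdp2* ranged from -0.51 to 0.28, so they lay on both sides of 0. The genes called higher were led by the repressor *E2f7* (106.6 after *Flcn* siRNA and 57.2 after scramble siRNA, 1.86-fold), the activator *E2f1* (185.8 after *Flcn* siRNA and 101.2 after scramble siRNA, 1.84-fold) and *E2f4* (37.8 after *Flcn* siRNA and 22.6 after scramble siRNA, 1.67-fold), which acts with pocket proteins in resting cells. *E2f1* had a log2 ratio of 0.014 at its other probe set. *E2f4* was dim, in the lowest signal range, where 14.7% of genes were called higher. *Rb1*, which encodes the retinoblastoma protein, had 253.5 with *Flcn* siRNA and 342.9 with scramble siRNA at its brighter probe set, a log2 ratio of -0.44, and 0.61 at the dimmer one. *Rb1* was named here after its value was seen, because it is the substrate of these kinases.

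Of 15 measured cyclins outside the D and E classes 2 were called higher and none lower. They were *Ccng2*, an atypical cyclin linked to arrest, with 365.9 after *Flcn* siRNA and 197.8 after scramble siRNA (1.85-fold), and *Ccna2*, the cyclin A gene that follows cyclin E as a partner of Cdk2, at 738.0 with *Flcn* siRNA and 477.8 with scramble siRNA (1.54-fold). With median scaling *Ccna2* was just under 1.5-fold, at a log2 ratio of 0.54. The median over these cyclins was -0.078. Of 15 further CDKs none was called higher and 1 was called lower, *Cdk12*, a kinase of transcription elongation, at 82.5 with *Flcn* siRNA and 132.5 with scramble siRNA (log2 ratio -0.68), although its 5 probe sets ranged up to 0.15.

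The other CDK inhibitors showed no calls. *Cdkn1a*, the p21 gene, had 1072.0 with *Flcn* siRNA and 934.4 with scramble siRNA (log2 ratio 0.20). *Cdkn2d*, the p19 INK4 gene, had 429.9 with *Flcn* siRNA and 413.2 with scramble siRNA (0.057), and *Cdkn3*, a phosphatase that acts on CDKs, had 205.4 with *Flcn* siRNA and 211.9 with scramble siRNA (-0.045). *Cdkn1c*, *Cdkn2a* and *Cdkn2b*, which encode p57, p16 with p19ARF, and p15, lay below the filter, with signals of 0.6, 2.1 and 1.7 after *Flcn* siRNA and 7.2, 1.0 and 2.7 after scramble siRNA. Of the 4 INK4 genes, *Cdkn2c* and *Cdkn2d* were thus above the filter, and they had log2 ratios of 0.52 and 0.057.

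Among genes of protein turnover and phosphorylation control, 3 of 23 were called higher and 2 lower, with a median log2 ratio of 0.049. Those higher were *Fbxo31*, an F-box protein reported in human cells to target cyclin D1 (80.7 after *Flcn* siRNA and 36.0 after scramble siRNA, 2.24-fold, and 0.15 as log2 ratio at the second probe set), *Wee1*, a kinase that inhibits Cdk1 and Cdk2 (170.4 after *Flcn* siRNA and 96.8 after scramble siRNA, 1.76-fold), and *Rbx1*, the RING subunit of cullin ligases (27.9 after *Flcn* siRNA and 18.1 after scramble siRNA, 1.54-fold, both dim). Those lower were *Fbxo4*, another F-box protein reported to act on cyclin D1 there, with 110.1 after *Flcn* siRNA and 220.0 after scramble siRNA (log2 ratio -0.999), and *Usp2*, a deubiquitinase reported to stabilise it, at 197.4 with *Flcn* siRNA and 297.0 with scramble siRNA (-0.59, just past 1.5-fold, and -0.43 at its second probe set). With median scaling the counts were 2 higher and 3 lower, since *Rbx1* was then short of 1.5-fold at a log2 ratio of 0.54 and *Gsk3b*, a kinase that phosphorylates cyclin D1, was past it at -0.65. Before this scaling the 6 probe sets of *Gsk3b* ranged from -0.56 to 0.34, so they lay on both sides of 0. *Skp2*, the F-box protein that directs p27 to degradation, had 221.0 with *Flcn* siRNA and 172.6 with scramble siRNA (0.36), with ratios of -0.039 to 0.68 over its 6 probe sets, and was named here after its value was seen.

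Genes of mitogenic input to the D cyclins showed no calls among 19 measured. Of these, 8 lay above 0, against 51.7% of all genes, and 11 below 0, with a median log2 ratio of -0.025. The highest ratio in this list was 0.55 and the lowest -0.52. With median scaling 1 of them, *Ets2*, a transcription factor downstream of Ras, was called lower at -0.61. *Tfdp2*, *Gsk3b* and *Ets2* were named after their values were seen. The lists were written with earlier results of these data known, share the same pair of arrays and are no independent evidence of each other.

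**Figure D4:**
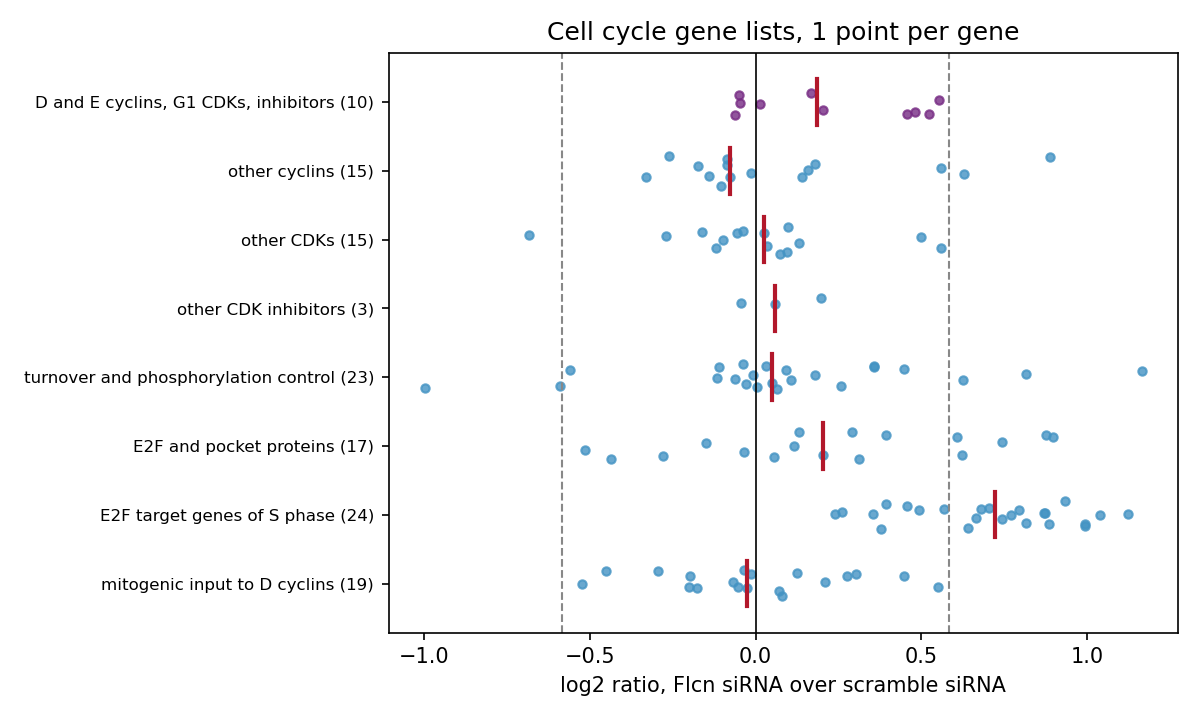
Log2 ratio (*Flcn* siRNA over scramble siRNA) of the G1 regulators and of the measured genes in 7 other lists, whose sizes stand in parentheses, 1 point per gene, red bars at list medians and dashed lines at 1.5-fold. The bar of the E2F target genes of S phase is at 0.72 and that of the 10 G1 regulators at 0.18, and the other bars lie between -0.078 and 0.20.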

How the data were processed

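RNA of RAW264.7 cells was hybridised to 1 Affymetrix Mouse Genome 430 2.0 array per condition. The deposited values are linear signal intensities that the authors obtained with GCOS 1.0, 1 for every probe set on each array. The scaling target is not given in the sources used here, but the mean after leaving out 2% of values at each end is 100 on both arrays. Of 45101 probe sets, 64 are controls, 34945 name 1 gene, 932 name several and 9160 are unlisted in the platform annotation. For 34741 the symbol was taken through Entrez ID from the RefSeq table of GRCm38.p6. Genes named by no single-gene probe set are not analysed here.

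Floor, filter, choice of probe set and threshold are as given in the report, and the same steps were applied to all genes. The 10 members and all lists were chosen with earlier results of these data known. Named genes are the 10 members with every probe set, all other CDK inhibitors, and of each other list up to 3 called genes at each end, with *Flcn* as the check of the knockdown. *Rb1*, *Skp2*, *Tfdp2*, *Gsk3b*, *Ets2* and *Nfatc1* fall outside this rule and were named after their values were seen. With 1 array per condition there was no test, and the number of arrays sets the precision. Alternatives were 2 other scalings, 3 other ways to represent a gene, 2 other floors, 2 other filters and thresholds of 1.3-fold and 2-fold. Steps were tested on simulated data with true changes of 2-fold or more in genes well above the filter. Smaller true changes and changes in dim genes were not simulated. Python 3.11.15, numpy 2.4.6, pandas 2.3.3 and matplotlib 3.10.9 were used.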

Additional observations from a re-analysis of the deposited data

How the results depend on the processing

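Of 342 values recomputed under an alternative, 326 kept their size, 16 moved and none reversed a called direction. Kept means within 1.5 times for a count and within 0.19 on the log2 scale for a ratio. The last count says nothing about the 10 genes, as none was called. All 10 ratios were unchanged with the 2 other floors, without the filter, and with the brightest probe set taken on each array. Those alternatives therefore did not test these ratios. *Cdk4* fell below 0 after median scaling, at -0.075. *Cdk6*, like *Cdkn1b*, rose above 0 once its probe sets were averaged, to 0.11. *Ccne1*, *Ccne2*, *Cdk2* and *Cdkn2c* lay above 0 under every alternative that gave a value, with log2 ratios of 0.37 to 0.55, and no alternative brought any of the 10 genes to 1.5-fold. *Cdk2* had no value with only probe sets unique to 1 transcript, and *Ccnd2* none with a filter at the 75th percentile. The value of *Cdkn1b* was 0.45 with the mean of all probe sets. At 1.3-fold 4 genes and 6 probe sets of the G1 regulators were called higher, and no probe set at 2-fold (0) or with the filter at the 75th percentile (0), which leaves out the dim *Cdkn1b* probe set. That filter left 213 genes called higher and 268 called lower among all genes, 1 called higher in the turnover list and 3 among E2F and pocket proteins. With median scaling the genes called higher were 1 among other cyclins and 3 among E2F and pocket proteins, and those called lower were 1 there and 1 in mitogenic input, while the turnover list had 2 higher and 3 lower. With the mean of all probe sets 0 other CDKs and 1 turnover gene were called lower, and with unique probe sets 1 turnover gene. The causes were not tested. No paired analysis was possible because each condition has 1 array. Without replicates, signal near the array median limits *Ccnd2* and the dim *Cdkn1b* probe set most.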

Other observations

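Genes with the searched promoter words were described across the arrays, with no test. Of 8427 genes above the filter that have a RefSeq promoter, 479 were called higher on the *Flcn* siRNA array (5.68%) and 450 lower (5.34%). Among 355 of these with an E2F word in the 250 bases before a start site, 35 were called higher (9.86%) and 9 lower (2.54%), with a median log2 ratio of 0.11, against 0.012 over the 8427. Among 868 with an E-box, 40 were called higher (4.61%) and 37 lower (4.26%), with a median of 0.0099. *Cdk2* is one of the 355 genes, and *Cdk4* and *Cdk6* are among the 868.

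*Ctsk*, the cathepsin K gene of osteoclasts, was the only osteoclast marker called at the probe set representing its gene. Its signals were 58.4 after *Flcn* siRNA and 17.2 after scramble siRNA (3.40-fold). It has 1 probe set above the filter and fell in the dimmest signal range, where 14.7% of genes were called higher. *Nfatc1*, another osteoclast marker, had a log2 ratio of 0.099 at its representing probe set, and its 4 probe sets ranged up to 0.86. Of the macrophage markers *Fcgr1*, an Fc receptor, was called lower, with 380.1 after *Flcn* siRNA and 1032.6 after scramble siRNA (log2 ratio -1.44). Their part in the values of the G1 regulators was not tested.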
